A study of Drosophila melanogaster with 3 samples.

Results

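The regions described here are peaks of the achi protein that lie in divergent promoters, where the starts of genes on opposite strands are close together. A peak was a member when its summit lay within 500 bp of annotated transcription start sites (TSSs) of protein-coding genes on both strands. In the list of 8998 peaks that the authors kept after comparing replicates (the optimal list), 825 peaks met this rule, or 9.17%. They made up 28.2% of the 2928 peaks whose summit lay within 500 bp of any protein-coding TSS, and the remaining 2103 promoter peaks served as the comparison. Chromatin immunoprecipitation followed by sequencing was done on whole Drosophila melanogaster prepupae, males and females pooled, of a transgenic line carrying achi with eGFP fused to its C-terminal end, and the precipitating antibody recognised GFP. The age of the animals is labelled unknown. The 3 biological replicates formed the only group, and there was no treated or mutant group to compare. What drives the transgene and how far the endogenous achi gene remains active were not given in the labels, the lists mix all tissues of the animal, and every list used the same control. The members were regions, not replicates, so comparisons were made over the 3 replicates, and an exact two-sided sign-flip test over 3 replicates cannot give a p below 0.25.

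Divergent, or head-to-head, gene pairs share a stretch of DNA from which transcription runs outward in both directions, and in the compact fly genome many genes of basic cell functions are arranged in this way. Achi (achintya) and its neighbour vis are homeodomain proteins of the TGIF class, best known in flies for their need in spermatogenesis, and TGIF proteins bind the word TGACAG. Fly promoters of broadly expressed genes often carry other words: TATCGATA, the DNA replication-related element bound by DREF; CGATA, the core recognised by the boundary protein BEAF-32; and GGTCACAC, the core of motif 1 bound by M1BP. The GAGA factor word GAGAG, the TATA box and the initiator are known more from regulated and developmental promoters.

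The DNA between both starts is shown for 5 head-to-head pairs among the 12 strongest members in which it was at most 300 bases long, because here the whole shared promoter can be read; not every such pair is printed. Every stretch is the plus strand of dm6 (the Release 6 reference sequence of RefSeq), with the minus-strand gene named first and to the left. Capitals mark TGACAG or its reverse complement CTGTCA, TATCGATA, and CGATA or its reverse complement TATCG; where no such word occurs the stretch has no capitals.
Ripalpha/RpL7, chr2L:10200975-10201003: cccactccgcggccagtgtgaccgtttgg
RpS13/CSN8, chr2L:8364663-8364854: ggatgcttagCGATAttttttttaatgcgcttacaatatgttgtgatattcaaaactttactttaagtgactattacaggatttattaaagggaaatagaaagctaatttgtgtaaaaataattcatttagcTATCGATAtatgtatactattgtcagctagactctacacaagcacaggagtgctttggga
ND-51/CG13994, chr2L:6062758-6062988: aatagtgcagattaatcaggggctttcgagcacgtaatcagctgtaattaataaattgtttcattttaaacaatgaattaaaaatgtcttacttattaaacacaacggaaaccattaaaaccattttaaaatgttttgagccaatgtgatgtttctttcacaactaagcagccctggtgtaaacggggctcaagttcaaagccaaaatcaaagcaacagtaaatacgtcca
Nelf-E/RpL14, chr3L:8600880-8601005: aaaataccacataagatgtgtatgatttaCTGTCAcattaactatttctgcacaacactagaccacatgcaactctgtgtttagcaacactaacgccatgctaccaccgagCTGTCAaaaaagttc
COX6B/CG33932, chrX:19744336-19744430: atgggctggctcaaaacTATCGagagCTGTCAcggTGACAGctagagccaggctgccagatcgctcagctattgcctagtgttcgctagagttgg

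In Nelf-E/RpL14 and COX6B/CG33932 the TGACAG words lay inside the shared stretch. In the other pairs shown it held none, and the nearest TGACAG lay just inside the transcribed part of a gene: 68 bp inside RpL7, 23 bp inside RpS13 and 53 bp inside ND-51. The stretch between RpS13 and CSN8 held 1 TATCGATA, more than 100 bp from the summit. The copy within 100 bp of the summit lay inside RpS13, outside this stretch.

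The 30 bases around TGACAG are shown for strong members, to let the word be compared between them on the same strand and with the same capitals. The window cuts through a TATCGATA at the right end of RpS13/CSN8 and the left end of Afti/ATPsynE, so only part of it is in capitals there.
CG5885/CG4598, chr2L:9918200-9918229: gctggagtgcggCTGTCAgtggctgtcgat
Ripalpha/RpL7, chr2L:10201055-10201084: gttgtaccgattTGACAGcccgaagttggc
CG12237/Sec61gamma, chrX:19643308-19643337: ccctgccaccacTGACAGctcggccccagt
RpS13/CSN8, chr2L:8364627-8364656: cgatgtggagacCTGTCAaagcagcTATCG
ND-51/CG13994, chr2L:6062692-6062721: gggacaactgacTGACAGctgaaatgtgac
Afti/ATPsynE, chr3R:14327051-14327080: atCGATAgccgcCTGTCAgtttTGACAGct
Nelf-E/RpL14, chr3L:8600979-8601008: gctaccaccgagCTGTCAaaaaagttcttt
COX6B/CG33932, chrX:19744359-19744388: gagCTGTCAcggTGACAGctagagccaggc
Dhdds/RpS14a, chrX:7933707-7933736: aactcagcaaccCTGTCAtttTGACAGcta

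In COX6B/CG33932 and Dhdds/RpS14a the window held a pair of facing copies, CTGTCA followed by TGACAG with 3 bases between them, and in Afti/ATPsynE the spacer was 4 bases. Dhdds/RpS14a, at rank 102, is shown for this arrangement and was chosen after the values were seen. Facing copies with a spacer of 3 occurred within 100 bp of the summit in 3 of 825 members, 2 of 2103 other promoter peaks and 1 of 6070 peaks away from promoters, and within 100 bp of the start in 6 of 13945 protein-coding genes. With a spacer of 4 the counts were 1 member and 1 other promoter peak.

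The 12 strongest members were strong in all 3 replicates. They were picked from the optimal list, which was made over these same replicates, so this agreement is not independent of the choice. Each of them ranked between 2 and 26 in every replicate list of 30000 regions, and 11 of the 12 had TGACAG no farther than 100 bp from the summit. CG5885/CG4598 was the strongest, with a signal value of 8173 and rank 2 in the optimal list and in each replicate list. Signal here is the authors' enrichment score for a region, and since its scaling to depth is not stated it is read only as an order within a list. Ripalpha/RpL7 had a signal of 7160 and ranked 3, 6 and 3 in replicates 1, 2 and 3; RpL7 encodes a protein of the large ribosomal subunit. CG5611/Mtl was the single pair of the 12 without TGACAG in the window, and it ranked 7, 3 and 5 with a signal of 6326. The replicates placed these 3 pairs almost alike.

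Genes for ribosomal proteins, protein secretion and mitochondrial respiration filled the next places. CG4294/RpS16 ranked 5, 7 and 7 in replicates 1, 2 and 3 with a signal of 5801, and RpS13/CSN8, which joins a small-subunit ribosomal protein with a subunit of the COP9 signalosome, ranked 13, 8 and 11 with 5374. CG12237/Sec61gamma ranked 6, 9 and 8 with a signal of 5676; Sec61gamma is part of the channel that passes proteins into the endoplasmic reticulum. ND-51/CG13994, with a subunit of respiratory complex I, ranked 16, 10 and 13 with 5027. Afti/ATPsynE, with an ATP synthase subunit, ranked 15, 12 and 18 with 4889. The remaining 3 of the 12 varied more: Nelf-E/RpL14 ranked 11, 21 and 16, COX6B/CG33932 ranked 12, 26 and 12, and RpL19/CG3776 ranked 20, 14 and 22, with signals of 4808, 4804 and 4698. Nelf-E belongs to the complex that holds paused RNA polymerase, and COX6B to cytochrome c oxidase.

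Members also stood higher in the lists as a whole. Their median rank in the optimal list was 2859 of 8998, with quartiles of 1131 and 5073. Other promoter peaks had a median of 4272 and quartiles of 1755 and 6736.5, so the ranks of single peaks overlapped widely. The median signal was 336 at members against 243 at other promoter peaks. In percent rank, where 100 is the strongest of a replicate's 30000 regions, the members' median was 92.3, 91.4 and 91.0 in replicates 1, 2 and 3. For other promoter peaks it was 87.6, 86.9 and 86.5, so the replicate medians of the groups did not overlap. The difference was 4.57 ± 0.103 percent rank points (SD, n = 3), higher in 3 of 3 replicates, with an exact two-sided sign-flip p of 0.25, the smallest the design allows. Summits of the same region share its replicate rank, and with 1 summit per gene pair the difference was 3.75. No overlapping region was found for 2, 10 and 27 of 825 members in replicates 1, 2 and 3, and these were left out there. The same held for 3, 11 and 24 of 2103 other promoter peaks. With the missing peaks set to 0 the difference was 4.54. Among the stronger 4499 optimal peaks the difference was 0.484, and in percent ranks of the replicate lists' -log10 q-value it was 0. In the optimal list, 87.8% of members and 78.6% of other promoter peaks hold the maximum -log10 q-value.

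**Figure D1:**
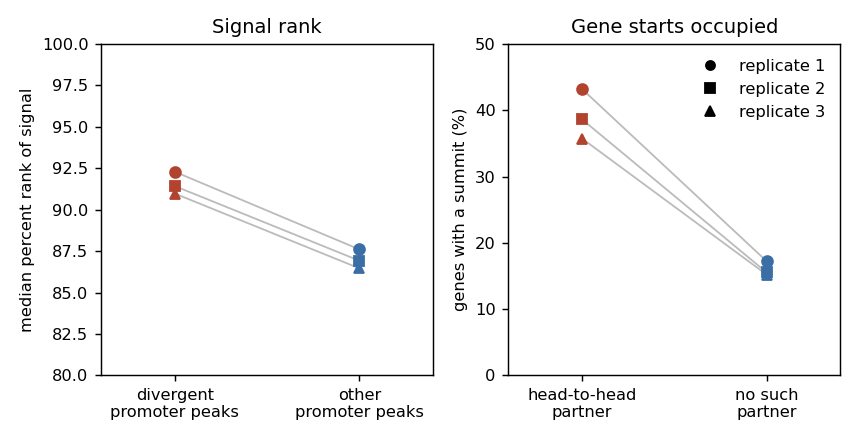
Left, median percent rank of signal (100 is the strongest of 30000 regions; the axis starts at 80) of divergent-promoter peaks and other promoter peaks in each of 3 replicates. Right, percent of protein-coding genes with a summit within 500 bp of a TSS, for genes with and without a head-to-head partner; lines join a replicate, and in both panels the left-hand value is the higher in each replicate.

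The share of promoter peaks that were divergent was highest among the strongest peaks. Among the 25 strongest optimal peaks, all in promoters, 16 were members (64%), and the share in the 3 replicates' own lists was 61.7% ± 4.41 (SD, n = 3). From rank 26 to 100 it was 43.4% (23 of 53 promoter peaks), with 44.9% ± 0.921 in the replicates. Between ranks 101 and 4000 it stayed between 30.7% and 38.6%. From rank 4001 to 8998 it was 20.8% (291 of 1396), with 23.8% ± 1.19 in the replicates. Over whole top lists, that is each replicate's 8998 strongest regions, the share was 30.6%, 30.2% and 28.6% in replicates 1, 2 and 3, a mean of 29.8% ± 1.08. The share in the top 25 exceeded that of the whole list by more than the spread of the replicates. That spread shows how alike the replicates rank and not how uncertain a share among 25 peaks is, and the difference was not tested.

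**Figure D2:**
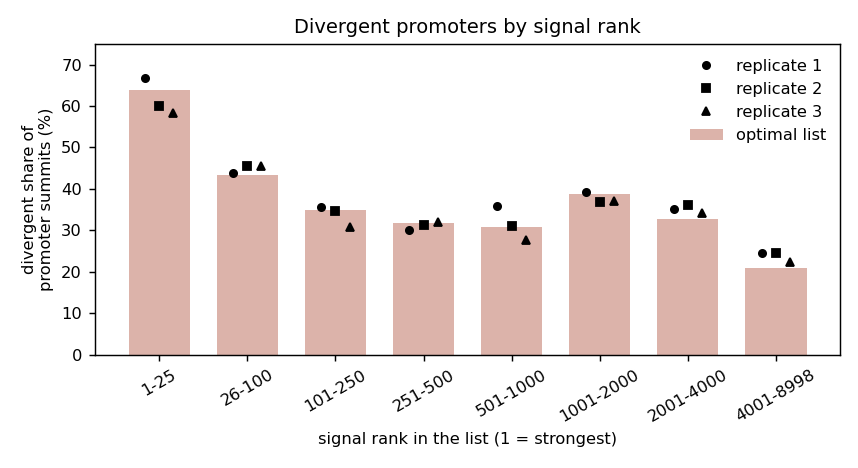
Divergent share of promoter summits (%) by signal rank, for the optimal list (bars) and each replicate's own list (points). The bar is 64% for ranks 1 to 25 and 20.8% for ranks 4001 to 8998.

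Of the members, 664 (80.5%) lay in the top lists of all 3 replicates, beside 72.1% of all optimal peaks and 70.8% of the other promoter peaks. A further 127 lay in 2 top lists, 32 in 1 and 2 in none. Per replicate, 94.9%, 92.7% and 88.5% of members lay in a top-list region, against 90.3%, 86.9% and 85.4% of other promoter peaks. The difference was 4.50 ± 1.36 percentage points (SD, n = 3), higher in 3 of 3 replicates with an exact sign-flip p of 0.25. It turned to -1.09 within the stronger 4499 optimal peaks, and to -0.77 against the 51 promoter peaks of several genes on the same strand, and was 15.7 with top lists of 4499 regions.

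The label of head-to-head promoters was checked against the gene starts. In 800 members (97.0%) the nearest minus-strand start lay left of the nearest plus-strand start, so that transcription ran apart. In the other 25 the genes' starts coincided or overlapped, as at CG4741/Adck1, at rank 220, where the starts were 141 bp past each other. These 25 had a median rank of 3852, against 2823.5 for the 800. The 825 summits fell in 751 different nearest gene pairs, of which 74 held 2 summits, so members can share a promoter. Most summits (787) had 2 genes within reach, 32 had 3, 4 had 4 and 1 had 5. The summit with most genes, 10 of them, lay in the mod(mdg4) locus, known for its trans-spliced transcripts. At the edge of the rule, 33 members had their farther start 451 to 500 bp away and a median rank of 4649, and 40 promoter peaks just outside, at 501 to 550 bp, had a median rank of 4487.5.

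Most summits sat in the shared stretch and close to a start. Between the starts of the 800 head-to-head members the distance ran from 1 to 864 bp, with a median of 299 and quartiles of 225 and 411. The summit lay between both starts in 655 (81.9%), inside the minus-strand gene in 70 and inside the plus-strand gene in 75. Of the 655, 193 (29.5%) lay in the middle part (0.4 to 0.6 of the way) of the stretch, 75 in the part next to the minus-strand start (up to 0.2) and 94 in that next to the plus-strand start (from 0.8). The median distance was 89 bp to the nearer start and 218.5 bp to the farther one, and 455 summits (56.9%) were within 100 bp of a start. The plus-strand start was nearer in 425 and the minus-strand start in 372.

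**Figure D3:**
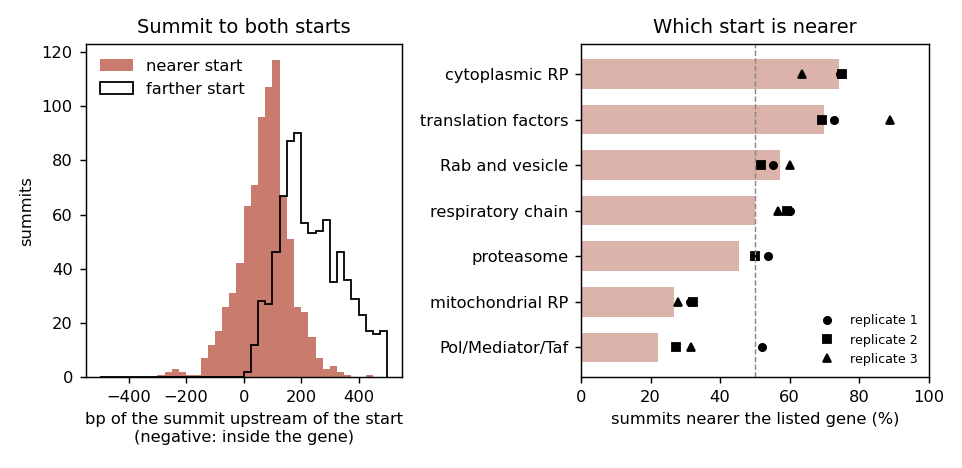
Left, number of head-to-head summits by their distance in bp upstream of the nearer start (filled) and the farther start (outline); negative values lie inside the gene, and the medians of the distances are 89 and 218.5 bp. Right, percent of summits nearer the listed gene than its partner, in the optimal list (bars) and 3 replicates (points), with a dashed line at 50%; the bar is 74.3% for cytoplasmic and 26.7% for mitochondrial ribosomal proteins (RP).

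The members with the shortest and longest distances between starts showed a wide range of signal. Among members in all 3 top lists the closest starts were those of dpa/didum, 2 bp apart (dpa encodes a subunit of the replicative helicase, didum a myosin), and the pair ranked 787, 1073 and 1860 in replicates 1, 2 and 3. CG3032/CG4593 and CG7246/HP1b, both 6 bp apart, ranked 1274 and 2539 in the optimal list. The widest were mRNA-cap/CG32599 with 864 bp, CG30440/Ugt50B3 with 813 bp and GstS1/CG46491 with 740 bp, at ranks 7655, 6002 and 4014. The weakest members were CG13185/cuff, Dd/CG1486 and U4-U6-60K/CG7564, at ranks 8966, 8969 and 8991. U4-U6-60K/CG7564 overlapped no region of replicate 2. CG13185/cuff overlapped a stronger region in each replicate, at ranks 2571, 2154 and 1865.

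Genes with a head-to-head partner, another protein-coding gene on the opposite strand starting within 1000 bp upstream, were occupied more often than other genes. In the optimal list 1844 of 5052 such genes (36.5%) had a summit within 500 bp of a TSS, against 1390 of 8893 others (15.6%) and 23.2% of all 13945. In replicates 1, 2 and 3 the share was 43.2%, 38.6% and 35.7% with a partner and 17.2%, 15.5% and 15.2% without. The ranges did not overlap, and the difference was 23.2 ± 2.72 percentage points (SD, n = 3), higher in 3 of 3 replicates, with an exact sign-flip p of 0.25. A pair is counted for both of its genes, so a single summit can occupy both. Genes with a partner had 1.47 TSSs on average and the others 1.37, and 8.53% of them were in the housekeeping lists described here against 3.17% of the others; among genes with 1 TSS, or without the listed genes, the difference kept its direction.

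Occupancy varied with the distance between starts. Of 2667 head-to-head pairs up to 1000 bp apart, 944 (35.4%) had an optimal summit within 500 bp of the midpoint. The share was 45.3% (181 of 400) for starts 301 to 400 bp apart and 42.4% (230 of 542) for 201 to 300 bp, and 48.9% ± 4.63 and 45.4% ± 6.63 in the replicates (SD, n = 3). For starts up to 100 bp apart it was 29.1% (125 of 429; 33.3% ± 4.23), for 101 to 200 bp it was 26.1% (93 of 357; 28.3% ± 2.92), and for 801 to 1000 bp it was 29.0% (28.8% ± 1.30). In each replicate the share at 301 to 400 bp exceeded those at both ends; the difference was not tested.

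**Figure D4:**
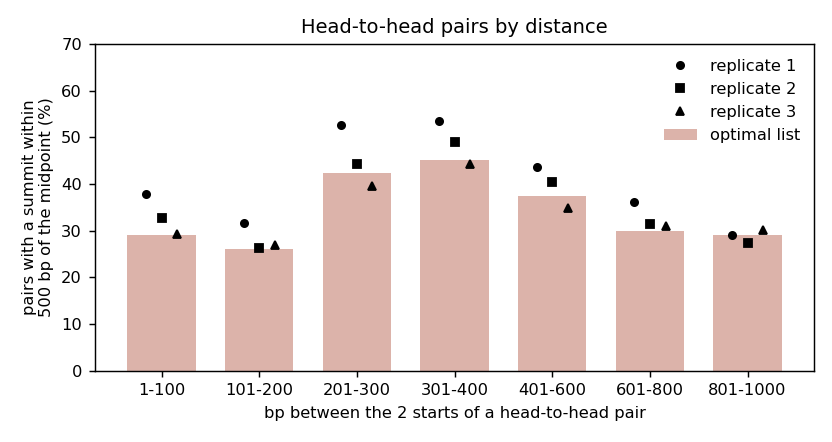
Percent of head-to-head pairs with a summit within 500 bp of the midpoint, by distance in bp between the starts, for the optimal list (bars) and 3 replicates (points). The bars are 29.1% at 1 to 100 bp, 26.1% at 101 to 200 bp, 45.3% at 301 to 400 bp and 29.0% at 801 to 1000 bp.

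The TGIF word was more frequent at members. TGACAG, counted on either strand up to 100 bp from the summit, occurred at 124 of 825 members (15.0%) and 10.5% of other promoter peaks, with 11.7% over all promoter peaks together. In the windows 1000 bp to each side of members it occurred in 4.97%, and 8.81% of all gene starts held it within 100 bp. By replicate the shares were 13.8%, 14.8% and 15.4% at divergent and 10.4%, 9.77% and 10.5% at other promoter summits, which did not overlap. The difference was 4.46 ± 0.862 percentage points (SD, n = 3), higher in 3 of 3 replicates, with an exact sign-flip p of 0.25. It was 1.59 with promoters defined within 200 bp, 2.25 and 7.02 with the word sought within 50 and 200 bp of the summit, and 10.9 against promoter peaks of several genes on the same strand. The word was concentrated at strong peaks: in ranks 1 to 100, 27 of 39 members (69.2%) and 19 of 39 other promoter peaks (48.7%) had it. In ranks 101 to 500 the shares were 19.3% and 16.7%, in ranks 501 to 2000 14.1% and 11.2%, and from rank 2001 on 10.4% and 8.63%. Members rank higher as a group, and the difference over whole lists was not matched for rank. Members with the word had a median rank of 1575.5 against 3078 without it, and in replicates 1, 2 and 3 median percent ranks of 95.5, 95.7 and 94.2 against 91.6, 90.7 and 90.6.

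At gene starts the TGIF word also differed with occupancy. Among genes with a head-to-head partner, 12.6% of occupied and 7.01% of unoccupied genes held TGACAG within 100 bp of the start, a gap seen in the replicates too (12.6% ± 0.168 against 6.78% ± 0.254, SD, n = 3). Without a partner the shares were 9.78% and 8.46%. The 144 occurrences at head-to-head members lay between the starts in 97 cases (67.4%), at a median of 20 bp upstream of the nearer start, with 66 on the strand of the nearer gene and 78 on the other. The palindrome CAGCTG, an E-box, differed less between the peak groups, at 14.4% of members and 12.4% of other promoter peaks. At gene starts it also differed with occupancy, at 21.15% of occupied and 15.8% of unoccupied genes with a head-to-head partner. Genes without a partner held it in 17.7% and 10.4%, so the gap with occupancy was not particular to TGACAG.

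TATCGATA, the DREF element, occurred at 90 members (10.9%) and 4.42% of other promoter peaks, with 6.25% over all promoter peaks and 0.485% in the members' flanks. In replicates 1, 2 and 3 it occurred at 11.7%, 10.7% and 9.49% of divergent and 5.05%, 4.09% and 4.44% of other promoter summits, without overlap. The difference was 6.10 ± 0.905 percentage points (SD, n = 3), higher in 3 of 3 replicates, with an exact sign-flip p of 0.25. It was 3.49 with promoters defined within 200 bp, and 2.88 and 12.8 with the word sought within 50 and 200 bp of the summit. At gene starts the word varied more with a partner than with occupancy: 14.4% of occupied and 12.1% of unoccupied genes with a head-to-head partner held it, against 6.12% and 4.73% without one, and 7.84% of all. CGATA, which lies within TATCGATA, occurred at 44.7% of members and 28.1% of other promoter peaks (39.4% of all gene starts), and the motif 1 core GGTCACAC at 5.21% and 2.23% (6.76%). At gene starts these words too varied more with a partner than with occupancy. CGATA was at 51.0% of occupied and 48.6% of unoccupied genes with a partner, against 36.1% and 33.2% without one. GGTCACAC was at 10.6% and 11.4%, against 5.83% and 3.99%. Within 100 bp of the midpoint of head-to-head pairs, TGACAG occurred in 9.75% of the 944 occupied and 6.85% of the 1723 unoccupied pairs, TATCGATA in 7.42% and 9.17%, and GGTCACAC in 3.18% and 6.62%. In these midpoint windows TATAAA (44.2% and 37.4%) and TAATTA (25.1% and 20.4%) were, like TGACAG, more frequent in occupied pairs. At gene starts, unlike TGACAG, they were not. With a head-to-head partner, TATAAA was at 25.98% of occupied and 29.55% of unoccupied genes, and TAATTA at 11.39% and 11.97%. Without a partner the shares were 18.2% and 31.8% for TATAAA, and 7.27% and 9.22% for TAATTA. Members with TATCGATA had a median rank of 3531.5, against 2750 without it. Those with both TGACAG and TATCGATA, 22 in number, had a median rank of 911.5; the 102 with TGACAG alone had 1675, the 68 with TATCGATA alone 3995.5 and the 633 with neither 2959.

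The GAGA and initiator words were less frequent at members. GAGAG occurred at 13.5% of members and 28.8% of other promoter peaks, a difference of -14.6 ± 1.01 percentage points over the replicates (SD, n = 3), lower in 3 of 3, and 22.5% of all gene starts held it. The initiator core TCAGT occurred at 28.1% and 34.2%, lower in 3 of 3 replicates by -5.52 ± 0.0836. TATAAA and the homeodomain word TAATTA were more frequent at members, at 43.2% against 32.4% and 23.0% against 14.0%. All gene starts held TCAGT in 42.8%, TATAAA in 29.2%, TAATTA in 9.95% and CAGCTG in 13.8%. Those windows were centred on starts, whereas the windows at members were centred on summits. In the members' flanks GAGAG occurred in 20.8%, TCAGT in 28.5%, TATAAA in 14.4%, TAATTA in 7.15% and CAGCTG in 12.2%. A word match describes the letters in the window and not binding of the factor named for it.

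**Figure D5:**
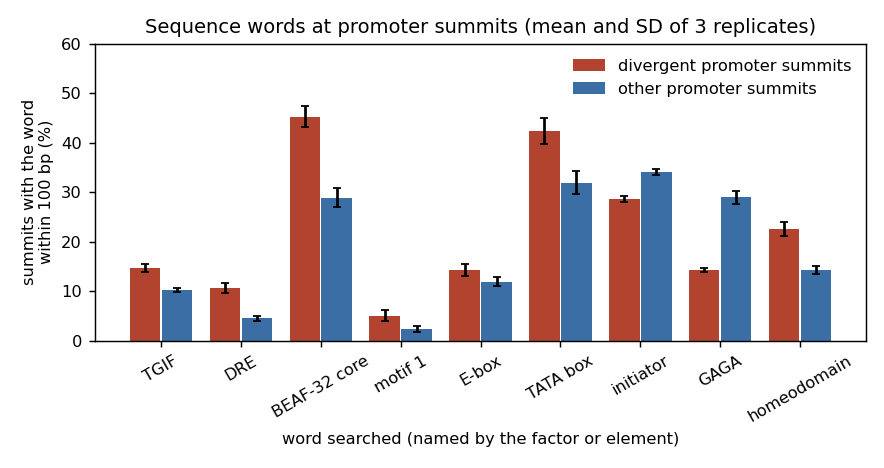
Percent of divergent-promoter summits (red) and other promoter summits (blue) with each sequence word within 100 bp, mean and SD of 3 replicates; words are named by their factor or element. The TGIF, DRE, BEAF-32 core and motif 1 words are higher at divergent promoters, and the GAGA word is lower, with a replicate mean of 14.4% against 29.0%.

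Cytoplasmic ribosomal protein genes were among the lists most often found at members. Of 93 such genes, 34 (36.6%; 36.9% ± 3.29 in the replicates, SD, n = 3) lay within 500 bp of a member summit, beside 11.1% of all 13945 protein-coding genes, and another 34 (36.6%, beside 12.1% of all genes) had a summit in other promoters alone; 60.2% have a head-to-head partner, against 36.2% of all genes. The 35 summits had a median rank of 1167 and 31 lay in all 3 top lists. The summit was nearer the ribosomal protein gene than its partner in 26 of 35 cases (74.3%), and in 29 of 39, 30 of 40 and 21 of 33 in replicates 1, 2 and 3, at a median of 52 bp from its start and 195 bp from the partner's. In ranks 1 to 100, 9 of 10 such summits held TGACAG, and from rank 501 on 1 of 22 did.

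Mitochondrial ribosomal protein genes were nearly as frequent but lay differently. Of 75 genes, 25 (33.3%; 35.1% ± 2.78) were at a member and 2 in other promoters alone, and 78.7% have a head-to-head partner. The summit was nearer the listed gene in 8 of 30 cases (26.7%), and in 10 of 32, 10 of 31 and 7 of 25 in the replicates, at a median of 174 bp from its start and 112 bp from the partner's. The replicate shares, 30.5% ± 2.23, did not overlap those of the cytoplasmic list, 71.0% ± 6.38; this difference between lists was seen after the values and was not tested. TGACAG was at 2 of the 30 summits, whose median rank was 3596. The strongest were mRpS23/CenG1A, at rank 52 and at 52, 70 and 38 in replicates 1, 2 and 3, and Art3/mRpS10, at rank 74 and at 78, 98 and 60, both without TGACAG. Genes of the respiratory chain and ATP synthase were at members in 21 of 91 cases (23.1%; 24.2% ± 2.20), and the summit was nearer them in 10 of 20. Their 5 summits in ranks 1 to 100 all held TGACAG, and 1 of 13 from rank 501 on did.

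Most other lists of basic cell functions had shares above 11.1%, but all of them other than mitochondrial import (31.3%) also hold more genes with a head-to-head partner than the 36.2% of all genes. Among genes with a partner alone, 30.4% of all were at members, against 34.6% for the proteasome, 35.2% for Rab GTPases and vesicle tethers, 32.1% for RNA polymerase, Mediator and TBP-associated factors, 28.6% for translation factors and 25% for DNA replication and repair, so these lists lay near or below that share. It was 60.7% for cytoplasmic ribosomal proteins, 45.7% for the respiratory chain, 43.5% for aminoacyl-tRNA synthetases, 42.9% for vacuolar ATPase genes and 42.4% for mitochondrial ribosomal proteins. The highest share was 80% for mitochondrial import, from only 4 of 5 genes. The lowest among these lists were 13.6% (3 of 22) for splicing snRNP proteins and 14.3% (2 of 14) for chaperonin and heat shock genes. Of 33 aminoacyl-tRNA synthetases, which load tRNAs, 10 (30.3%; 36.4% ± 3.03 in the replicates, SD, n = 3) were at members, led by Hem/IleRS at rank 785 and SerRS/CG17260 at rank 893. The 80 genes for RNA polymerase, Mediator and TBP-associated factors had 18 (22.5%), led by MED30/Rev1 at rank 459 and 140up/Polr2B at 722, and the summit was nearer the listed gene in 4 of 18, but in 13 of 25, 6 of 22 and 6 of 19 in replicates 1, 2 and 3. Rab GTPases and vesicle tethers had 19 of 86 (22.1%); this list, chosen by symbol, also took in genes of the translocon (Sec61alpha, Sec61gamma and Sec63) and of coated vesicle formation (Sec13, Sec16 and Sec23), and Fur1/Vps33B ranked 282. The proteasome had 9 of 48 (18.8%), among them Hat1/Rpn5 at rank 535, and mitochondrial import 4 of 16 (25%), led by Tim10/Ppcdc at rank 46, with CG8229/Tom7 at 1748. Vacuolar ATPase genes had 6 of 33 (18.2%), with Vha100-2/Vti1b at rank 200 and CG8187/Vha36-1 at 306. Genes of DNA replication and repair had 7 of 44 (15.9%), with CG3198/Mcm6 at rank 240 and CG13933/PolD2 at 760.

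Near the background of all genes lay translation factors, at 8 of 54 (14.8%), led by eIF4EHP/CG18428 at rank 43 and eIF3m/CG8323 at 185, and splicing snRNP proteins, at 3 of 27 (11.1%, but 21.0% ± 2.14 in the replicates), led by Oda/SmD3 at rank 71 and U2af50/PIG-Q at 673. Of the splicing genes with a head-to-head partner, 13.6% were at members in the optimal list, below the 30.4% of all genes with one. Chaperonin and heat shock genes were below it, at 2 of 33 (6.06%), with Hsc70-5/CG8531 at rank 690 and Oda/CCT5 at 3761, and 8 more had a summit in other promoters alone. Tissue-restricted families were nearly missing from members, and most of them from other promoter peaks too. A summit in other promoters alone was found for 1 of 123 cuticle protein genes and 1 of 179 receptors. The counts were 0 of 47 seminal fluid genes, 0 of 27 trypsins and Jonah proteases and 8 of 85 P450 genes (9.41%), beside 12.1% of all genes. Of 123 cuticle protein genes, 179 olfactory and gustatory receptors or 27 trypsins and Jonah proteases, 0 were at a member in the optimal list; in replicate 1 the share was 1.63% for cuticle proteins and 0.559% for receptors. Of 47 seminal fluid genes, 1 qualified through Sfp26Ad/Gpdh1, at rank 3077, whose summit was nearer Gpdh1, and 1 of 85 cytochrome P450 genes through Cyp9f2/CG5167, at rank 6175. A head-to-head partner was present for 11.4% of cuticle genes, 14.5% of receptors, 15.3% of P450 genes, 8.51% of seminal fluid genes and 29.6% of trypsins and Jonah proteases.

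Listed genes on both sides occurred in 4 pairs. RpL28/eIF1, a large-subunit ribosomal protein beside an initiation factor, ranked 505, 290 and 731 in replicates 1, 2 and 3. RPA1/Mcm2 joins a single-strand DNA-binding protein with a helicase subunit and ranked 1759, 1691 and 2579. ATPsynCF6/Sec13 ranked 3621, 3445 and 4023, and Sec3/COX7B 4251, 6057 and 4491. All 4 lay in the 3 top lists, and none held TGACAG or TATCGATA within 100 bp of the summit.

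By chromosome arm, 20.8% of promoter summits on X (116 of 558) were divergent, against 32.2% on 2L, 25.3% on 2R, 29.9% on 3L and 32.2% on 3R, while 35.7% of X-linked genes and 35.9% to 37.0% of genes on the other large arms have a head-to-head partner. The small chromosome 4 held 1 member among 9 promoter summits. The arms were compared in the optimal list alone, and the difference was not tested.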

How the data were processed

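Chromatin from 3 biological replicates of whole prepupae, a single group, was precipitated through the GFP tag, per the labels; another label names achi itself as the antibody. The deposited lists give each region a signal value, the authors' enrichment score, and a -log10 q-value, also the authors', which saturates. Per the file descriptions, the authors made each replicate list of 30000 regions against a shared control and filtered the optimal list by the irreproducible discovery rate. For the aligner and the peak caller, names and versions are not given in the sources consulted. No reads were used, and depth is unknown.

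Summits and genes were joined in dm6 with Ensembl release 115 (13945 protein-coding genes) in Python 3.11.15 with pandas 2.3.3 and numpy 2.4.6, and scripts were tested on simulated data. Each replicate's top list was its 8998 strongest regions. A peak took the percent rank of the strongest replicate region overlapping it by 1 bp. Sequence words were counted on either strand up to 100 bp from summits. The 18 gene lists are symbol patterns matching 1174 genes. Members and lists were chosen with earlier results of these data known, so counts over them are descriptions; no test was run over peaks or genes. Named pairs are the 12 strongest and 3 weakest, the 3 shortest and 3 longest distances among those in all 3 top lists, up to 2 strongest per gene list, and pairs with listed genes on both sides; any others were chosen after their values were seen. Of the 12 strongest, 1 pair is counted but not reported by name here. Alternatives included other windows, list lengths, 1 TSS per gene and leaving out each replicate.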

Additional observations from a re-analysis of the deposited data

How the results depend on the processing

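The difference in percent rank was 0 to 6.36 over 12 alternatives, positive in 11. The exception was the replicate lists' -log10 q-value, in which it was 0. In the optimal list most promoter peaks hold the maximum of that value. The difference in top-list share was -1.09 to 15.7 over 12 alternatives, and it reversed in 2, being -1.09 among the stronger 4499 optimal peaks and -0.77 against promoter peaks of several genes on 1 strand; the cause was not tested. The differences for TGACAG (1.59 to 10.9 percentage points) and TATCGATA (2.88 to 12.8) stayed positive in all 11 alternatives run, and that for occupied genes (18.1 to 24.6) in all 9. Missing regions set to 0, any 1 bp overlap, genes with 1 TSS and genes outside the lists were chosen after seeing the data. The divergent share of promoter summits moved from 29.8% to 19.3% with a 200 bp window, 32.1% with 1000 bp, 35.2% with 1 TSS per gene and 35.2% with top lists of 4499 regions. All differences were taken within each replicate. No replicate block between groups could be fitted, since there is a single group. With 3 replicates no sign-flip test can go below 0.25. The lists share a control, and untagged flies were not analysed here, so a shared fault would appear in every replicate.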
